A study of Mus musculus with 4 samples.

Results

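The astrocyte identity genes described here are 10 genes by which astrocytes are commonly recognised in the adult mouse brain: Gfap, Aqp4, Aldoc, Slc1a2, Slc1a3, Gja1, Gjb6, S100b, Aldh1l1 and Glul. They were found by exact match of the gene symbol in the deposited count table, which holds 31060 genes, and each symbol matched 1 gene. All 10 passed the filter on low counts, as did 17236 genes in all. The surgery group consisted of hippocampus from wild-type C57BL/6 mice aged 12 months, taken on day 3 after exploratory laparotomy under sevoflurane. The control group consisted of hippocampus from wild-type mice of the same strain and age, labelled day 0. These mice had no operation and no sevoflurane before tissue collection. For tissue collection the paper describes an overdose of sevoflurane, so control mice also met this agent then. Operated mice also received ropivacaine under the skin along the incision. There were 2 libraries in each group, named surgery 1, surgery 2, control 1 and control 2. Anesthesia, operation and ropivacaine were given together, so their effects cannot be told apart here. No source used here says that libraries of a group came from separate animals. Each p below therefore measures the spread between these libraries, which may be technical.

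Astrocytes take up glutamate released at synapses, turn it into glutamine and return it to neurons. They are joined to each other by gap junctions, buffer potassium, and wrap blood vessels with endfeet that carry water channels. In the hippocampus their processes lie close to the synapses of pyramidal and granule cells, and GFAP staining of these processes is a usual sign of astrocytes in tissue sections. The 10 genes cover these roles: a filament protein, a water channel, the glutamate transporters with glutamine synthetase, the connexins, and enzymes and a calcium-binding protein that mark the cell. Whole tissue was sequenced, so fewer astrocytes and less RNA per astrocyte cannot be told apart in these values.

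Gene counts totalled 18159582 to 19318085 in the surgery libraries and 18002695 to 19193382 in the control libraries. The 10 genes together took 133698 and 119992 of these counts in the surgery libraries and 128537 and 120562 in the control libraries. Control 1 stood apart in choroid plexus genes: 8 markers of that epithelium summed to 3670 and 4596 CPM (counts scaled to the library total, after edgeR's TMM factors) in surgery 1 and 2, against 54.9 and 3547 CPM in control 1 and 2, with Kcnj13 at 0 in control 1. The libraries also differed in how the level of a gene, relative to its mean, ran with the GC content of its transcript, with a Spearman coefficient of -0.65 and -0.057 in surgery 1 and 2 and of 0.26 and 0.59 in control 1 and 2.

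Levels were first ordered per length, from the deposited FPKM values (counts scaled to the length of the gene and to the total of the library). Glul, the glutamine synthetase, was the highest of the 10, at 421 and 387 FPKM in the surgery libraries and 345 and 451 FPKM in the control libraries. Slc1a2, the main glutamate transporter of forebrain astrocytes (GLT-1), followed with 239 and 236 FPKM after surgery and 250 and 216 FPKM in control. Aldoc, the brain form of aldolase, had a mean of 182 FPKM over the 4 libraries. Gfap, the filament protein, had 110 FPKM and the glutamate transporter Slc1a3 (GLAST) had 76.7 FPKM. The calcium-binding protein S100b had 61.8 FPKM and the water channel Aqp4 had 33.9 FPKM. The connexins came next, with 23.7 FPKM for Gja1 (connexin 43) and 17.5 FPKM for Gjb6 (connexin 30). Aldh1l1, a folate enzyme widely used to label astrocytes, was the lowest at 8.19 FPKM. Between neighbours in this order the ranges over the 4 libraries did not overlap, so every library gave the same order. The mean level lay between the 67.0th percentile (Aldh1l1) and the 99.8th percentile (Glul) of the 17236 genes tested. All 10 were detected in every library, and 8 markers of hippocampal neurons summed to 1131 and 1157 CPM in surgery 1 and 2 and to 1223 and 1046 CPM in control 1 and 2. No other brain region was at hand for comparison, so these values do not test the label hippocampus.

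**Figure D1:**
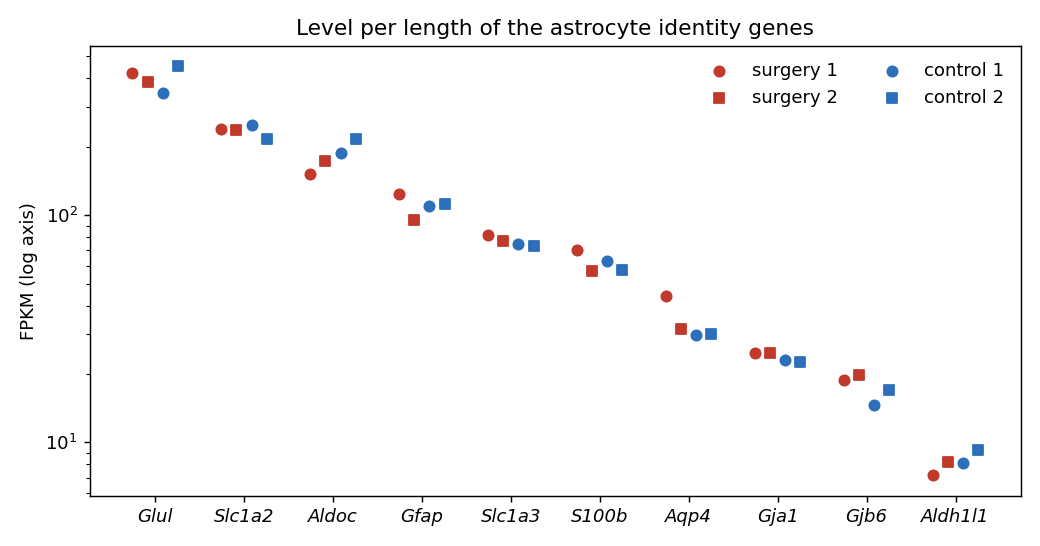
FPKM of the 10 astrocyte identity genes on a log axis, with 1 point for each library, surgery in red to the left of control in blue, ordered by the mean over the 4 libraries. The points of neighbouring genes do not overlap, from 401 FPKM for Glul to 8.19 FPKM for Aldh1l1. This range over the 10 genes is much wider than the distance between groups. Neighbours can lie close, as do Slc1a2 (216.0 FPKM) and Aldoc (215.6 FPKM) in control 2.

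Ratios between members within a library do not move with its total. Slc1a2 exceeded Slc1a3 by 2.93 and 3.07 times in surgery 1 and 2 and by 3.34 and 2.95 times in control 1 and 2, with overlapping groups. The ratio of Gfap to Slc1a2 also overlapped, at 0.52 and 0.40 after surgery and 0.44 and 0.52 in control. Gja1 exceeded Gjb6 by 1.31 and 1.26 times in the surgery libraries and by 1.57 and 1.33 times in the control libraries. Aqp4 reached 0.35 and 0.33 of the Gfap level in the surgery libraries, against 0.27 in both control libraries. The ratio of the connexins was thus lower, and that of Aqp4 to Gfap higher, in both surgery libraries than in either control library. Their genes differ in GC content, at 41.4% for Aqp4, 55.5% for Gfap, 42.2% for Gja1 and 49.6% for Gjb6. The edgeR log2 fold change of surgery over control was 0.35 for Aqp4 and 0.0059 for Gfap. With an offset for GC content in each library these were 0.19 and 0.13. For Gja1 and Gjb6 the values were 0.14 and 0.31 without the offset and -0.00065 and 0.31 with it. The part of GC content in the ratios was not tested. These ratios are given without a test. An exact permutation test of 2 against 2 libraries cannot go below 0.33.

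Surgery was then compared with control for each gene, by edgeR's quasi-likelihood test on the counts over all genes with Benjamini-Hochberg adjustment. None of the 10 genes passed the adjusted threshold of 0.05, and neither did any other gene (0% of 17236 genes). At an unadjusted p under 0.05, 2 of the 10 passed, Aqp4 and Gjb6, both higher after surgery, where 9.96% of all tested genes passed (746 higher and 971 lower). DESeq2 gave 0 of the 10 at its adjusted threshold, where it called 71 genes in all, and 3 at its unadjusted threshold (Aqp4, Gjb6 and Aldoc). Likewise limma-voom gave 0 adjusted and 3 unadjusted among the 10. Of all tested genes, 7.04% passed the unadjusted threshold in DESeq2 and 10.5% in limma-voom. The log2 fold change was positive for 8 genes and negative for Aldoc and Aldh1l1, with a median of 0.068 against 0.00053 over all tested genes. For 4 genes (Aqp4, Slc1a3, Gja1 and Gjb6) both surgery libraries were above both control libraries, for Aldoc both were below, and for 5 genes the groups overlapped. Over all tested genes the groups were apart in 42.6%, so 5 of 10 is close to the background. The 10 genes summed to 6947 and 6682 CPM in surgery 1 and 2 and to 6820 and 6515 CPM in control 1 and 2, which also overlapped.

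**Figure D2:**
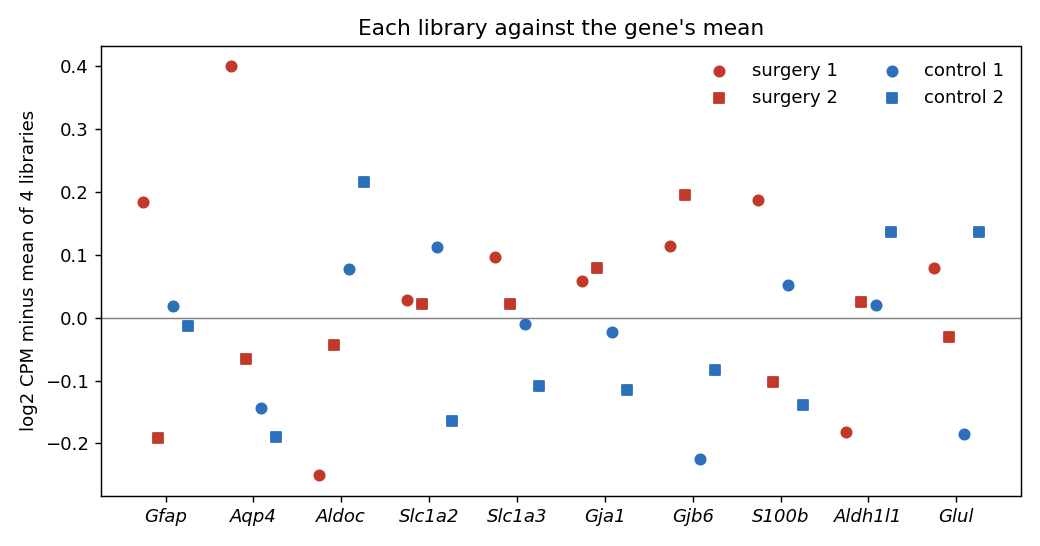
log2 CPM of each library minus the mean of the 4 libraries, for the 10 genes, with 1 point for each library, surgery in red to the left of control in blue. Both surgery points lie above both control points for Aqp4, Slc1a3, Gja1 and Gjb6 and below them for Aldoc, and surgery 1 is the farthest point for Aqp4 (0.40) and Aldoc (-0.25).

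Gfap encodes the glial fibrillary acidic protein, the intermediate filament of astrocytes, which is known to accumulate when astrocytes react to injury (chromosome 11, 102887336 to 102900912 on the minus strand of mm10, protein coding). It had 527 and 407 CPM in surgery 1 and 2 and 470 and 460 CPM in control 1 and 2. Surgery 1 was the highest and surgery 2 the lowest of the 4 libraries, so the control libraries lay between them. The means were 467 ± 85.3 CPM after surgery and 465 ± 7.42 CPM in control (SD, n = 2 each). This gave a log2 fold change of 0.0059 (SE 0.15, 95% interval -0.33 to 0.34, edgeR adjusted p = 0.993). Without surgery 1 it was -0.19, and without surgery 2 it was 0.18, so its sign was set by which surgery library was kept. A change of up to 0.34 on the log2 scale lies within this interval.

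Gfap is also read as alternative transcripts, which share most of their coding sequence and differ in its last exons. Gfap-201 encodes the common alpha form, and Gfap-202 the form known as delta or epsilon, which in humans is described in neural stem cells of the adult brain. In the deposited table of estimated transcript counts Gfap-201 had 37275 and 27492 counts in surgery 1 and 2 and 33141 and 32028 counts in control 1 and 2, a log2 fold change of 0.012 (SE 0.17). Gfap-202 had 3023 and 1333 counts in the surgery libraries and 1627 and 1477 counts in the control libraries. Its share of the gene's transcript counts was 7.502% and 4.62% after surgery and 4.68% and 4.41% in control, so that surgery 1 stood above the other 3 libraries. The log2 fold change of Gfap-202 was 0.50 (SE 0.48). The third transcript of the gene, Gfap-203, was at 0 and 0 counts after surgery and at 11 and 7 counts in control, too few to test.

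Aqp4 encodes aquaporin-4, the water channel that is concentrated in the endfeet around vessels (chromosome 18, 15389394 to 15403684 on the minus strand, protein coding). It had 224 and 163 CPM in surgery 1 and 2 and 154 and 149 CPM in control 1 and 2. Both surgery libraries were above both control libraries, surgery 2 only by a narrow margin. The log2 fold change was 0.35 (SE 0.15, 95% interval 0.023 to 0.68), with an edgeR p of 0.0381 and an adjusted p of 0.477. Surgery 1 decided the size of this difference. Without surgery 2 the log2 fold change was 0.57, while without surgery 1 it was 0.11. Aqp4 has the lowest GC content of the 10 genes (41.4%), and surgery 1 is the library in which genes of low GC content were highest relative to their means. With an offset for GC content in each library the log2 fold change of Aqp4 was 0.19 (adjusted p = 0.756).

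Glutamate is cleared by Slc1a2 (chromosome 2, 102658659 to 102790784, plus strand) and Slc1a3 (chromosome 15, 8634124 to 8710764, minus strand), and is amidated to glutamine by Glul (chromosome 1, 153899944 to 153909723, plus strand). Slc1a2 had 3155 and 3141 CPM in the surgery libraries and 3343 and 2761 CPM in the control libraries. The surgery libraries were nearly equal and lay between the controls, with a log2 fold change of 0.045 (SE 0.20, edgeR adjusted p = 0.958). Slc1a3 had 701 and 665 CPM after surgery and 650 and 608 CPM in control. Here the groups did not overlap, but the gap between them was narrower than the spread within each group, and the log2 fold change was 0.12 (SE 0.14, edgeR adjusted p = 0.805). Glul had 1403 and 1301 CPM in the surgery libraries and 1168 and 1460 CPM in the control libraries, with the surgery libraries again between the controls. Its log2 fold change was 0.041 (SE 0.18, edgeR adjusted p = 0.956). In the control group Slc1a2 and Glul spread in opposite directions, Slc1a2 higher in control 1 and Glul higher in control 2. The interval for Slc1a2 reached from -0.39 to 0.48 and that for Glul from -0.35 to 0.43, so changes of either sign lie within these intervals.

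The gap junctions of astrocytes are built of connexin 43, from Gja1 (chromosome 10, 56377330 to 56402513, plus strand), and connexin 30, from Gjb6 (chromosome 14, 57123303 to 57133611, minus strand). Gjb6 had 50.5 and 53.4 CPM in surgery 1 and 2, against 39.9 and 44.0 CPM in control 1 and 2. The groups were apart by more than the spread within either, at 52.0 ± 2.05 CPM after surgery and 42.0 ± 2.93 CPM in control (SD, n = 2 each). For Gjb6 the log2 fold change was 0.31 (SE 0.12, 95% interval 0.036 to 0.58), with an edgeR p of 0.0299 and an adjusted p of 0.462. It stayed positive with each library left out in turn, between 0.24 (without control 1) and 0.39 (without control 2), and was 0.31 with the GC offset. Gja1 had 254 and 257 CPM in the surgery libraries and 240 and 225 CPM in the control libraries. The surgery libraries were again the higher pair, with a log2 fold change of 0.14 (SE 0.11, edgeR adjusted p = 0.713). With the GC offset the log2 fold change of Gja1 was -0.00065, and genes above a log2 CPM of 3 within 1 percentage point of its GC content (42.2%) had a median of 0.14.

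Promoter sequence of the connexin genes is shown, since the measured level of both was higher in each surgery library than in each control library. The windows run from 250 bases before to 50 bases after the start site in RefSeq on GRCm38.p6 and are read in the direction of transcription. Capitals mark a match to the AP-1 motif TGANTCA, searched on both strands, which was found in Gja1 at 19 bases before the start and in 7.81% of 32851 promoters of the same length:
Gja1 promoter (chr10:56377050-56377349, plus strand): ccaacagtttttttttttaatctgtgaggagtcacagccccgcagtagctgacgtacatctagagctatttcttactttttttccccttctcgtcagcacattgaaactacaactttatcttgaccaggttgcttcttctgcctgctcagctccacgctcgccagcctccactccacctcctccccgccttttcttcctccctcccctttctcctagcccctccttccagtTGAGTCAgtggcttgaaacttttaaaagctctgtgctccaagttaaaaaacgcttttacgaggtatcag
Gjb6 promoter (chr14:57133562-57133861, minus strand): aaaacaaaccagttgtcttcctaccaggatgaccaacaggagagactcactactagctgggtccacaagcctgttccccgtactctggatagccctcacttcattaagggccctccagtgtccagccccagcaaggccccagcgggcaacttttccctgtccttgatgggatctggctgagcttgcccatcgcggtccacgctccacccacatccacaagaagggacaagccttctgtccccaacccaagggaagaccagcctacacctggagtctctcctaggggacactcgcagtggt
The Gjb6 window held no match to this motif, nor to the TATA box TATAAA, the GC box GGGCGG or the STAT motif TTCNNNGAA. A match here is a run of letters and was not measured as a binding site.

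Aldoc encodes aldolase C, a glycolytic enzyme found mainly in astrocytes of the forebrain (chromosome 11, 78322968 to 78327781, plus strand). It was the only one of the 10 with both surgery libraries below both control libraries, at 496 and 572 CPM in surgery 1 and 2 against 622 and 685 CPM in control 1 and 2. The means were 534 ± 54.1 CPM after surgery and 653 ± 44.0 CPM in control (SD, n = 2 each). The log2 fold change was -0.29 (SE 0.14, 95% interval -0.61 to 0.026), with an edgeR p of 0.0684 and an adjusted p of 0.527. It stayed negative with each library left out in turn, between -0.40 and -0.19, and was -0.26 with the GC offset. Aldoa, the aldolase of muscle that is also abundant in brain, had 1455 and 1584 CPM after surgery and 1637 and 1646 CPM in control, with a log2 fold change of -0.11 (SE 0.17), but 0.042 with the GC offset. Aldoa is listed under 2 gene identifiers, of which the one with more counts was taken.

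Aldoc is transcribed from alternative first exons, and RefSeq gives a promoter for each. They are shown because the libraries differed in the estimated use of the transcripts that start there. Capitals mark a GC box (GGGCGG, in 35.7% of promoters) 17 bases before the upstream start, and STAT motifs (TTCNNNGAA, in 8.3% of promoters) 124 and 83 bases before the downstream start:
Aldoc upstream promoter (chr11:78322823-78323122, plus strand): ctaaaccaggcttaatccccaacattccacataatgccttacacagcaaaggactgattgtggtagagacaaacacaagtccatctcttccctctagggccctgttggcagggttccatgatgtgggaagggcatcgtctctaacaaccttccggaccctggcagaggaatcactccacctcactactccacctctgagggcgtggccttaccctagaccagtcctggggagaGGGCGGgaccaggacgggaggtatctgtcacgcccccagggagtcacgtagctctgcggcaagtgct
Aldoc downstream promoter (chr11:78323948-78324247, plus strand): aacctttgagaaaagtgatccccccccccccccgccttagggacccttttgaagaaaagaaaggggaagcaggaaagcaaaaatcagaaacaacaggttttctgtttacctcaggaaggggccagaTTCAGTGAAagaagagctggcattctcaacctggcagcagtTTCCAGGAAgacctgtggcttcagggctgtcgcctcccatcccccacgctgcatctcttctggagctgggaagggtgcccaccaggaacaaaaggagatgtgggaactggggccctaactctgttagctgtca
Aldoc-201, which starts 105 bases before the upstream start site, took 56.0% and 86.3% of the gene's transcript counts in surgery 1 and 2 and 81.2% and 43.4% in control 1 and 2. Aldoc-202, from the downstream start, took 43.7% and 13.4% after surgery and 17.98% and 56.4% in control. The share of the downstream transcript thus varied about as widely within each group as between libraries in all, and the groups overlapped.

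S100b encodes a calcium-binding protein that astrocytes release (chromosome 10, 76253853 to 76261159, plus strand). It had 104 and 85.3 CPM in the surgery libraries and 94.8 and 83.1 CPM in the control libraries, and the groups overlapped, with a log2 fold change of 0.091 (SE 0.13, edgeR adjusted p = 0.846). Its gene overlaps Dip2a on the opposite strand, which had 1789 and 1543 counts after surgery and 1893 and 1769 counts in control. The use of strand in counting is not given in the sources used here, so reads of the overlap could be assigned to either gene. Aldh1l1 encodes a formyltetrahydrofolate dehydrogenase (chromosome 6, 90486427 to 90600203, plus strand). It had 32.5 and 37.5 CPM in the surgery libraries and 37.4 and 40.6 CPM in the control libraries. Surgery 2 and control 1 were nearly equal, and the log2 fold change was -0.16 (SE 0.13, edgeR adjusted p = 0.725). The antisense or noncoding genes that overlap Gfap, Slc1a2, Slc1a3 and Aldh1l1, and Teddm2 across from Glul, had at most 46 counts in any library.

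**Figure D3:**
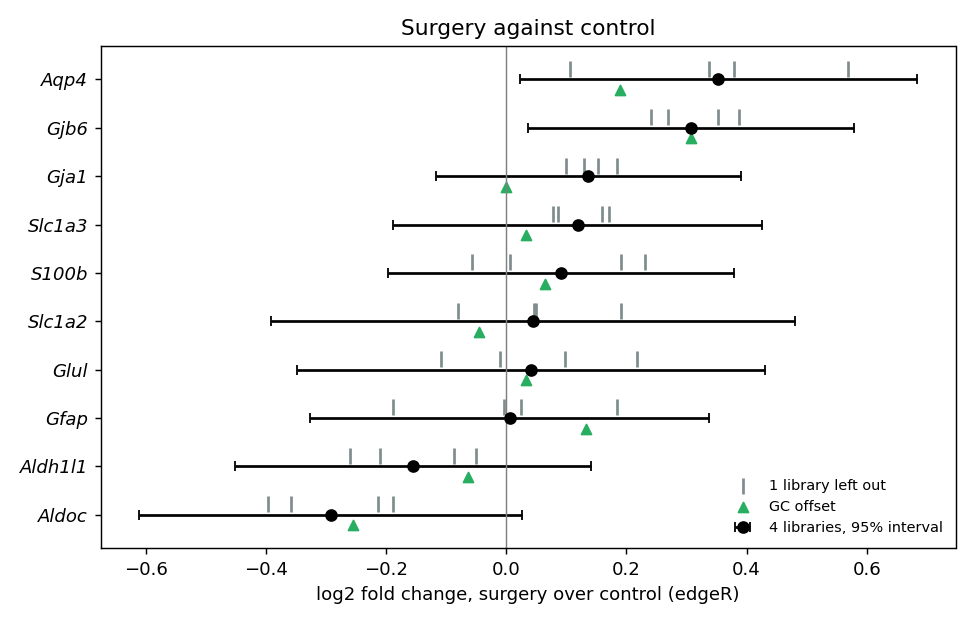
log2 fold change of surgery over control from edgeR for the 10 genes, with 95% intervals (black), the values with 1 library left out (grey marks, above) and with an offset for GC content (green triangles, below). The intervals of Aqp4 and Gjb6 lie above 0, and the marks of Aqp4 run from 0.11 to 0.57 while those of Gjb6 run from 0.24 to 0.39.

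The log2 fold changes of the 10 genes ran against GC content, with a Spearman coefficient of -0.73 over these 10 genes and of -0.45 over the 17209 tested genes with a known GC content. Genes are not independent replicates, they share the same 4 libraries, and no p is given. Aqp4 and Gja1, with 41.4% and 42.2% GC, were among the higher fold changes, and Aldh1l1 with 54.4% GC was among the lower. Set against genes within 1 percentage point of their own GC content, Aqp4 (0.35) stood beside a median of 0.17, Gjb6 (0.31) beside 0.0056 and Aldoc (-0.29) beside -0.045. Gfap (0.0059), the member with the highest GC content at 55.5%, stood beside a median of -0.12. Slc1a3 (0.12) and Slc1a2 (0.045) stood beside 0.079 and 0.084. With the GC offset Gjb6 and Aldoc kept values of 0.31 and -0.26, while those of Aqp4, Gja1 and Slc1a3 were 0.19, -0.00065 and 0.032. Gfap had 0.13 and Aldh1l1 -0.064 with the offset, against 0.0059 and -0.16 without it. The values of S100b, Glul and Slc1a2 with the offset were 0.065, 0.033 and -0.045.

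**Figure D4:**
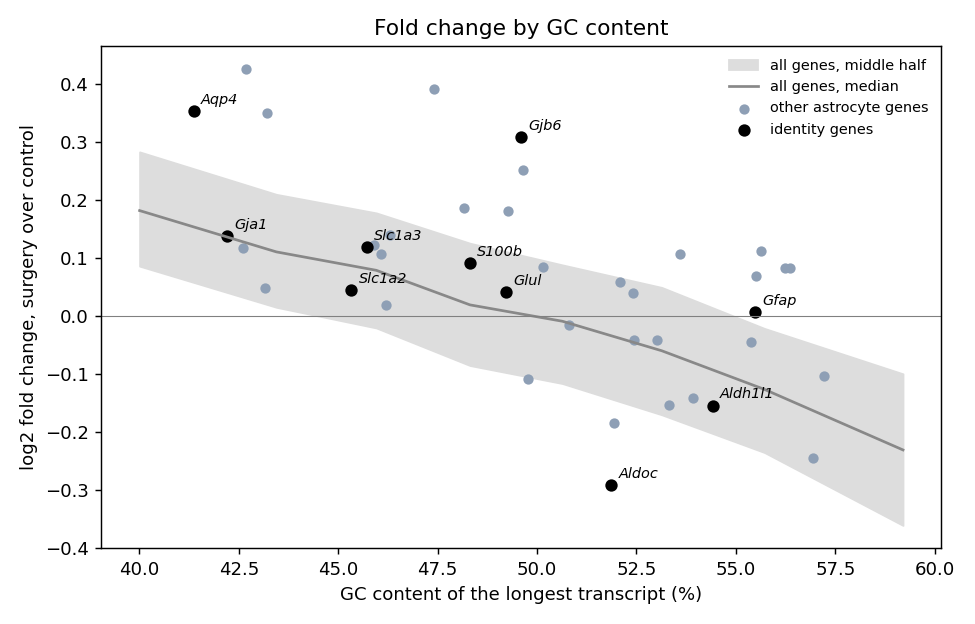
log2 fold change of surgery over control by GC content (percent, taken from the longest transcript) for the 10 identity genes (black, named) and 30 other astrocyte genes (blue-grey), with the median and the range from the lower to the upper quartile of all genes above a log2 CPM of 3 in 8 bins of GC content. The median of these genes goes from 0.18 in the bin of lowest GC content to -0.23 in the bin of highest, and Aqp4, Gjb6 and Gfap lie above the quartile range and Aldoc below it.

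The transcript table was read for the same genes. It holds 103309 transcripts, of which 15398 are assembled models without a gene symbol, and its totals were 3.91 times the gene totals in both surgery libraries and 3.85 times in both control libraries. The 10 genes have 42 named transcripts, of which 31 were tested. None passed the adjusted threshold in edgeR (0% of 65665 tested transcripts), and 1 of the 31, Gjb6-201, passed at an unadjusted p under 0.05, where 6% of all tested transcripts did. DESeq2 called the same transcript and none of the others at its adjusted threshold, where it called 2593 transcripts in all, and limma-voom called none.

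Gjb6-201, the transcript that starts at the promoter shown above, had 1520 and 1801 estimated counts in surgery 1 and 2, against 343 and 290 counts in control 1 and 2. This gave a log2 fold change of 2.42 (SE 0.34, 95% interval 1.43 to 3.41), with an edgeR p of 0.0033 and an adjusted p of 0.407, and a DESeq2 adjusted p of 6.93e-07. Over all alternatives its adjusted p ran from 6.93e-07 to 0.98, while the log2 fold change stayed between 1.93 and 2.57. The count of the whole gene was 972 and 959 after surgery and 752 and 815 in control. The named transcripts of Gjb6 thus held 1.60 and 2.42 counts for each gene count in the surgery libraries and only 0.53 and 0.41 in the control libraries, where the median over the 10897 genes above a log2 CPM of 3 was 3.55 to 3.58. The transcript table and the gene table therefore differed in the size of the change for this gene, at 2.42 and 0.31 on the log2 scale.

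The same ratio set single libraries apart for other members. For Aqp4, whose one named transcript is Aqp4-201, it was 0.597 and 3.89 in surgery 1 and 2 and 3.40 and 3.80 in control 1 and 2. Aqp4-201 had 2579 estimated counts in surgery 1, where the gene count was the highest of the 4 libraries (4320), against 11355 in surgery 2 and 9849 and 10480 in control 1 and 2. Its log2 fold change was -0.50 (SE 0.81), opposite in sign to that of the gene. For S100b the ratio was 3.91 and 3.87 after surgery and 1.499 and 3.84 in control 1 and 2, so that control 1 was low. For Slc1a3 it was 2.31 and 2.94 in the surgery libraries, below the 3.80 and 3.61 in the control libraries, and the retained-intron transcript Slc1a3-202 took 52.1% and 61.6% of the named counts after surgery and 56.3% and 59.4% in control. In Gfap, Gja1 and Glul the ratio differed little between libraries, from 3.92 to 3.97 for Gfap. Whether counts missing from the named transcripts went to the models without a gene symbol was not tested. For Aqp4, Gjb6, S100b and Slc1a3 the transcript counts are therefore no second measure of the gene.

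**Figure D5:**
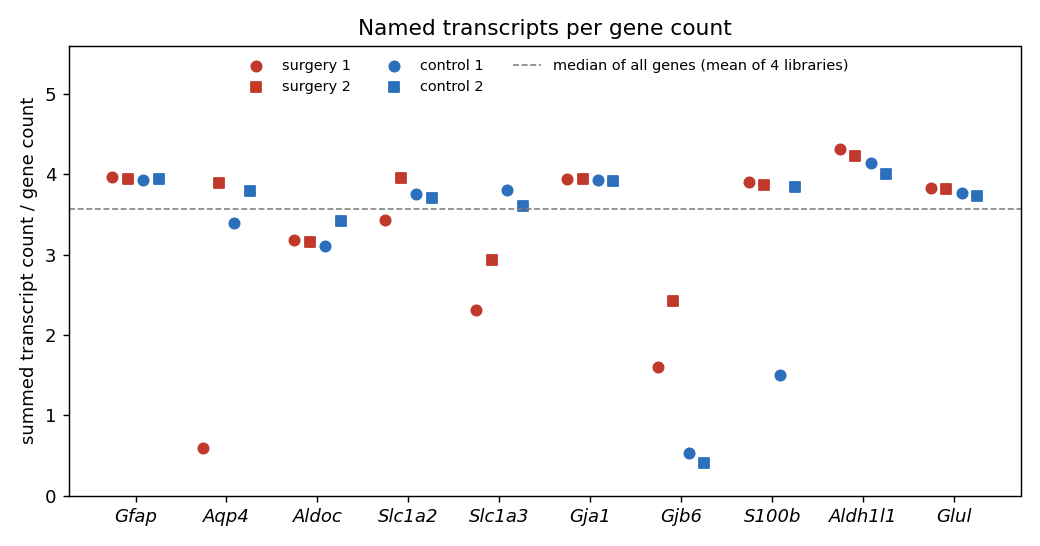
Summed estimated counts of the named transcripts divided by the gene count, for the 10 genes, with 1 point for each library, surgery in red to the left of control in blue. The dashed line is the median over 10897 genes above a log2 CPM of 3, and the lowest points are surgery 1 for Aqp4 (0.597), control 1 and 2 for Gjb6 (0.53 and 0.41) and control 1 for S100b (1.499).

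Genes that work with these 10 were read in the same fit, from lists chosen by function. Of 30 other genes enriched in astrocytes, 3 passed an unadjusted p under 0.05 in edgeR, all higher after surgery, a share close to the 9.96% of all tested genes, and none passed the adjusted threshold. The median log2 fold change was 0.075, with 20 positive and 10 negative. Nfia, a transcription factor of glial fate, had 75.4 and 70.8 CPM after surgery and 56.6 and 52.2 CPM in control (log2 fold change 0.43, SE 0.11). The zinc transporter Slc39a12 had 68.4 and 55.5 CPM after surgery and 43.6 and 53.7 CPM in control (0.35, SE 0.15). Atp13a4, a P5-type ATPase, had 15.8 and 18.5 CPM after surgery and 13.7 and 12.4 CPM in control (0.39, SE 0.17). These stood apart by more than the spread of their groups only for Nfia. In 12 astrocyte transcription factors, which again hold Nfia, Nfix (-0.36, SE 0.15) and the Notch target Hes5 (-0.62, SE 0.27) passed the unadjusted threshold in the other direction. Without surgery 2 the log2 fold changes were 0.47 for Nfia, 0.49 for Slc39a12 and -0.60 for Nfix. Without surgery 1 they were 0.38 for Nfia, 0.19 for Slc39a12 and -0.15 for Nfix. Slc39a12 also depended on control 2, without which it was 0.51, and control 1, without which it was 0.21. With the GC offset the values were 0.29 for Nfia, 0.22 for Slc39a12, 0.34 for Atp13a4, -0.21 for Nfix and -0.33 for Hes5.

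In 16 genes of glutamate and glutamine handling, 1 passed the unadjusted threshold, Slc38a2, a sodium-coupled transporter of glutamine, at 179 and 172 CPM after surgery and 140 and 150 CPM in control (log2 fold change 0.27, SE 0.11, and 0.17 with the GC offset). The list's median was 0.051, close to those of Slc1a2 and Glul. The neuronal transporter Slc1a1 overlapped between groups, with 136 and 117 CPM after surgery and 127 and 103 CPM in control. Of 11 genes that anchor proteins at the perivascular endfoot, none passed either threshold, with a median of -0.033. The potassium channel Kcnj10, found there beside Aqp4, had 186 and 171 CPM in the surgery libraries and 168 and 132 CPM in the control libraries (0.25, SE 0.14). In surgery 2 and control 1 it was nearly equal, and its log2 fold change was 0.092 without control 2 and 0.44 without control 1. Dmd, the dystrophin gene, was also above control in both surgery libraries (0.23, SE 0.14), while the adhesion protein Hepacam (-0.15, SE 0.11) and the matrix protein Agrn (-0.16, SE 0.11) were below control in both. With the GC offset Dmd had 0.082, Hepacam -0.089 and Agrn -0.021, and without control 2 Dmd had 0.058.

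The 11 other connexins, pannexins and the junction scaffold Tjp1 had a median log2 fold change of 0.016. Gjb2, the connexin 26 of astrocytes and meninges that neighbours Gjb6 on chromosome 14, had 11.1 and 10.2 CPM after surgery and 4.245 and 9.89 CPM in control. Only control 1 was low. Without control 1 the log2 fold change of Gjb2 was 0.11, against 0.59 with all libraries and 1.33 without control 2.

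Of 5 glial filament and linker genes 1 passed the unadjusted threshold, Plec, the linker plectin, at 200 and 212 CPM after surgery and 246 and 280 CPM in control (log2 fold change -0.35, SE 0.12). Plec has a GC content of 61.3%, and with the GC offset its log2 fold change was -0.066. Vim, the filament partner of GFAP, had 81.8 and 60.1 CPM after surgery and 43.7 and 65.0 CPM in control, so the groups overlapped (0.39, SE 0.19). The log2 fold change of Vim was 0.71 without control 2 and 0.59 without surgery 2, but 0.13 without control 1. In 11 aldolases and folate enzymes, 1 passed, the thymidylate synthase Tyms, at 2.13 and 3.68 CPM after surgery and 1.54 and 1.57 CPM in control (0.90, SE 0.37, and 0.46 without surgery 2), and the median was -0.11 with 8 of 11 negative. Of 10 S100 genes 7 were tested and none passed. Of 18 tested reactive astrocyte genes 16 were positive, with a median of 0.25 against 0.00053 over all tested genes. The positive ones of smallest p, Vim, Gbp2 and Cp, were each lowest in control 1, and Vim and Cp overlapped between groups. In the other direction 1 passed the unadjusted threshold, the complement gene C4b (-0.43, SE 0.18). C4b had 96.6 and 60.8 CPM after surgery and 110 and 102 CPM in control. Surgery 2 was the low library for C4b, and without surgery 1 its log2 fold change was -0.80, against -0.13 without surgery 2. With all 4 libraries none of these lists held a gene past the adjusted threshold in edgeR.

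Several of the 10 genes are also expressed outside astrocytes, and markers of those cells were set beside them. Ependymal cells, which also hold S100b and Aqp4, had 7 markers that summed to 25.3 and 28.1 CPM in surgery 1 and 2 and to 23.3 and 50.1 CPM in control 1 and 2. This sum was highest in control 2, where S100b and Aqp4 were lowest. Meningeal and mural cells, which also hold connexins 43 and 30, had 8 markers that summed to 142 and 184 CPM after surgery and 104 and 158 CPM in control. That sum was highest in surgery 2, as were both connexins. It was lowest in control 1, as was Gjb6, while Gja1 was lowest in control 2. Oligodendrocytes, which also hold Glul and S100b, had 10 markers that summed to 5261 and 3712 CPM in surgery 1 and 2 and to 5162 and 5414 CPM in control 1 and 2. Their sum was lowest in surgery 2, while Glul was lowest in control 1 and S100b in control 2. Endothelial markers, 8 in all, summed to 285 and 273 CPM in the surgery libraries and to 230 and 266 CPM in the control libraries. They were higher after surgery, as was Aqp4 of the endfeet, but lowest in control 1, while Aqp4 was lowest in control 2. The choroid plexus sums given at the start were lowest in control 1, while without control 1 the log2 fold change was 0.38 for Aqp4 and 0.24 for Gjb6. Leaving out control 1 also takes away everything else that set this library apart, so it cannot test the part of the choroid plexus. The part of these cells in the 10 genes was not tested.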

How the data were processed

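Hippocampal RNA of 2 surgery and 2 control libraries was analysed. The authors aligned the reads to mm10 with HISAT2 at default parameters and used HTSeq, given as version 5.4.2, per gene. The sources used here give no annotation release, strand setting or transcript tool. The authors deposited raw counts for genes and estimated counts for transcripts, each with FPKM values, which served to order genes per length.

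The test was the quasi-likelihood test of edgeR 4.0.16 under R 4.3.3 (TMM scaling, filterByExpr at a minimum of 10 counts and 15 in total), without a block, and p-values were adjusted by the Benjamini-Hochberg method over all tested features at a threshold of 0.05. DESeq2 1.42.0, limma 3.58.1 and the other settings of the closing section were alternatives. Those for Gjb6-201 and for genes outside the 10 were chosen after seeing the data. The methods were tested on simulated data. Of the genes, 30989 matched GENCODE vM21 for GC content. Promoters came from RefSeq on GRCm38.p6, where 9 of the 10 genes matched.

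The 10 genes and all lists were chosen with earlier results of these data known. Named were the 10 genes, up to 4 genes of each list by smallest p, 4 paralogs (Aldoa, Slc1a1, Gjb2 and Vim), the transcripts of Gfap and Aqp4, and of the other genes the transcript of highest mean FPKM and those at an unadjusted p under 0.05. Aldoc-202 was added after its values were seen. Some items are not reported here.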

Additional observations from a re-analysis of the deposited data

How the results depend on the processing

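There were 2 libraries a group, and the size of change that could have been detected was not computed. No gene passed edgeR's adjusted threshold, and this count depended on the setting: DESeq2 called 71, no filter on low counts 395, at least 10 counts in every library 1, the unadjusted threshold 1717, a p under 0.01 with a fold change of at least 2 gave 87, and leaving out 1 library 51 to 734. The labels give a replicate number and do not say whether same-numbered libraries were handled together. Same-numbered libraries deviated together only weakly (Pearson 0.13 across genes), but 2 pairs cannot show whether they were paired. With the replicate block 39 genes passed, and 30 with the GC offset and the block. Of the 10 genes, 0 passed in all settings except 2 at the unadjusted threshold and 0 to 1 with 1 library left out. Of transcripts, DESeq2 called 2593, the unadjusted threshold 3939 and a p under 0.01 with a 2-fold change 1286. The median of the 10 was 0.018 to 0.18 with 1 library left out. Aldoc, Gjb6 and Aldh1l1 kept their sign in all 17 alternatives. Signs turned for Gfap (-0.0060 with the block, -0.0067 in limma-voom, -0.023 on log2 FPKM with a pseudocount of 1 or 0.1 or a minimum of 1, -0.19 to 0.18 with 1 library left out), Slc1a2 (-0.045 with the GC offset, -0.041 with the block added, -0.079 to 0.19 with 1 left out), Gja1 (-0.00065 with the GC offset, -0.0024 with the block added), S100b (-0.056 to 0.23 with 1 left out) and Glul (-0.11 to 0.22). Summed from transcripts, Aqp4 was -0.51, Slc1a3 -0.39, Plec 1.23, Dmd -1.14 and Agrn 0.68. Aldoa was 0.042 with the GC offset and 0.043 with the block added, and Slc1a1 -0.0055 to 0.30 with 1 library left out. Among transcripts Gfap-201 was -0.056 on log2 FPKM, and with 1 library left out Gfap-201 was -0.19 to 0.18, Gfap-202 -0.16 to 0.95 and Aqp4-201 -1.99 to 0.22. The cause of these turns was not tested.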
